A study of Mus musculus with 30 samples.

Results

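Elavl2, Gad1, Onecut2, Pcdh17, Phf21b and Sult4a1 are 6 genes known mainly from neurons, and they were chosen from these arrays because their values were higher in Smchd1 null transformed mouse embryonic fibroblasts (MEFs) or in the null tumours grown from such cells. They were found by name among all probes on the array, in any letter case and under current or older symbols. This gave 13 probes, of which 10 passed a filter on low values, and all 6 genes were among the 13870 genes measured. The transformed MEF and tumour contrasts chose the genes, so their values there are a description with no test, and only primary MEFs allow one.

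The 30 arrays (Illumina MouseWG-6 v2, 1 colour) fall into 6 groups: null and wildtype primary MEFs, null and wildtype transformed MEFs, and null and wildtype tumours. Null cells carried the MommeD1 point mutation of Smchd1 and wildtype cells came from FVB/N mice, the same strain background. Primary MEFs had been passaged 2 to 3 times. Transformed MEFs of either genotype carried a p53 knockdown with HRasV12 overexpression and were collected 2 weeks after transformation. Tumours arose from transformed MEFs in nude mice, so they can also hold host cells. Each culture group had 3 arrays, and each genotype had tumours from 3 recipient mice (null recipients 4 to 6, wildtype recipients 1 to 3) with 3 arrays per mouse. The sample titles do not name the transformed culture a tumour came from, so the 3 mice of a genotype may share 1 culture. Nothing in the labels says that culture replicates came from separate embryos or dishes, so p-values measure only how far these samples differ, and that spread may be technical. Primary and transformed MEFs lay on 1 chip each, shared by both genotypes, and tumours on 3 others, so that stage and chip cannot be told apart.

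Neurons are set apart by RNA-binding proteins, transmitter enzymes, transcription factors and adhesion molecules that most other cells keep silent. Elavl2 (HuB) is an RNA-binding protein of the Hu family, which binds AU-rich stretches of transcripts in neurons, and Sult4a1 is a brain-enriched member of the cytosolic sulfotransferase family. Gad1 encodes GAD67, which makes the inhibitory transmitter GABA from glutamate. Phf21b is a PHD finger protein related to Phf21a, a subunit of the LSD1-CoREST repressor complex that acts with REST on neuronal genes. Onecut2 is a homeobox transcription factor with a cut domain, and Pcdh17 is a non-clustered protocadherin, an adhesion molecule of synapses. Smchd1 is a non-canonical SMC protein needed for silencing on the inactive X chromosome and at several autosomal clusters.

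Levels are log2 intensities with all arrays quantile normalized together, and a tumour value is the mean of 1 mouse's 3 arrays, so that n = 3 in every group. Background was the 95th percentile of the probes detected on no array and lay between 6.28 and 6.38. In primary MEFs Smchd1 averaged 7.26 ± 0.09 in null and 9.58 ± 0.03 in wildtype cells. It averaged 7.29 ± 0.05 in null and 9.43 ± 0.15 in wildtype transformed MEFs, and 8.13 ± 0.12 in null and 9.32 ± 0.15 in wildtype tumours (SD, n = 3 each). Null and wildtype samples did not overlap at any stage, and the gap was smallest in tumours, where macrophage markers averaged 10.71 to 11.48 in null and 11.27 to 11.64 in wildtype mice. The part of host cells in the tumour values was not tested. Fibroblast markers were measured for all 10 genes of the list, and their mean lay between 11.45 and 12.40 in every sample.

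RefSeq windows (build GRCm38.p6, from 250 bases before to 50 after a transcription start) were matched for Elavl2, Gad1, Pcdh17 and Phf21b and are shown because the data bear on these genes. Onecut2 was left out of this step and Sult4a1 had no window in the reference used, so neither is shown. Gad1 and Phf21b were also the pair not above background in transformed MEFs and measured again in tumours, and Pcdh17 is the one whose window holds the core of the ONECUT motif. The capitals mark matches, on either strand, to 4 short motifs. They are the CCAAT box, the TATA box with the letters TATAAA, the ONECUT core with the letters ATCAAT, and a REST half-site with the letters GGACAGC. These motifs were chosen after the values had been seen and do not overlap each other in the windows shown. The windows are chr2:70561879-70562178 on the plus strand for Gad1, chr15:84855050-84855349 on the minus strand for Phf21b, chr14:84443313-84443612 on the plus strand for Pcdh17 and chr4:91371991-91372290 on the minus strand for Elavl2, each written 5′ to 3′ along the gene.
Gad1: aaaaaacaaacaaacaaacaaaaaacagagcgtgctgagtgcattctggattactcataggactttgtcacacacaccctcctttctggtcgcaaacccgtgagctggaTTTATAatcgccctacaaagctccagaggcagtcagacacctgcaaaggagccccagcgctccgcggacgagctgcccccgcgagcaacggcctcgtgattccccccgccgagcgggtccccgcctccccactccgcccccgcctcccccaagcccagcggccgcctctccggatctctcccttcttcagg
Phf21b: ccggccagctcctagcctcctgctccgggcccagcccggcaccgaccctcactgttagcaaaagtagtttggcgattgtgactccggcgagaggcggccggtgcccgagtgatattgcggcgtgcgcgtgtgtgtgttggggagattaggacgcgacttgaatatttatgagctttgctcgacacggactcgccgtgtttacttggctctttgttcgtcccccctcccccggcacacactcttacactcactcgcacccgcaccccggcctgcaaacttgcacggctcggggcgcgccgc
Pcdh17: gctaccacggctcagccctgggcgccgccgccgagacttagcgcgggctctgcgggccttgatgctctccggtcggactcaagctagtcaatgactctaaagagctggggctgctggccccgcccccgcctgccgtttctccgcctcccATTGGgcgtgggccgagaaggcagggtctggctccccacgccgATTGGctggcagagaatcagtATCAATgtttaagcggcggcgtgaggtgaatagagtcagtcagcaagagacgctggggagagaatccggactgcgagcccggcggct
Elavl2: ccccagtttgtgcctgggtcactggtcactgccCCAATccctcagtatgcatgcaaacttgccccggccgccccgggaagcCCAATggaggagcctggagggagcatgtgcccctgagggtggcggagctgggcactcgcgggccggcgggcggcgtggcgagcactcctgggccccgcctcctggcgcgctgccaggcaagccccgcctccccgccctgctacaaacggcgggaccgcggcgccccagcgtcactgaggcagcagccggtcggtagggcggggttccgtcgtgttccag
The Gad1 window holds 21 CpG dinucleotides and 1 TATA box match, on the reverse strand. The Phf21b window holds 30 CpG dinucleotides and no match to the 4 motifs. That of Pcdh17 holds 26 CpG dinucleotides, 2 CCAAT box matches and 1 ONECUT core. Elavl2 has 6 annotated windows with 10 to 27 CpG dinucleotides, and the one shown holds 27 CpG and 2 CCAAT box matches. Over all 32851 windows the median is 7 CpG dinucleotides. As many CpG as in the window shown occur in 24.8% of all windows for Gad1, 11.7% for Phf21b, 16.9% for Pcdh17 and 15.5% for Elavl2, whose window is the richest of its 6, and in 43.5% for the poorest of them. The CCAAT box occurs in 37.4% of them, the TATA box in 13.6%, the ONECUT core in 7.54% and the REST half-site in 6.56%. A match is a description of these letters, not a binding site.

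Before transformation the 6 genes did not separate the genotypes, although 5 of them were well above background. In primary MEFs Elavl2 stood at 9.43, 9.56 and 9.69 in null and at 9.41, 9.83 and 9.66 in wildtype cells. Sult4a1 stood at 8.85, 9.08 and 8.95 in null and at 9.03, 9.44 and 9.28 in wildtype cells. Both were therefore above background in the primary cultures of either genotype, with overlapping replicates. Gad1 had 7.94, 7.98 and 7.62 in null and 7.69, 7.70 and 8.37 in wildtype cells. Phf21b had 7.54, 7.88 and 7.71 in null and 7.95, 8.15 and 7.67 in wildtype cells. Gad1 and Phf21b were thus at intermediate levels, again with overlap. Pcdh17 was at 8.46, 7.98 and 8.62 in null and at 8.12, 8.23 and 8.16 in wildtype cells. Onecut2 was at 6.22, 6.23 and 6.36 in null and at 6.36, 6.25 and 6.06 in wildtype cells, and 1 replicate of each genotype exceeded background. Onecut2 was the only member near background in primary MEFs.

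The primary MEF contrast is the one that did not choose the genes, and limma fitted to that stage alone called 0 of the 6 at a Benjamini-Hochberg adjusted p under 0.05, where 0.0505% of all genes were called. The null minus wildtype log2 difference was -0.07 ± 0.13 for Elavl2 (SE, 95% interval -0.37 to 0.22, adjusted p = 0.963). For Gad1 it was -0.07 ± 0.19 (interval -0.52 to 0.37, adjusted p = 0.978). Onecut2 differed by 0.05 ± 0.10 (interval -0.20 to 0.29, adjusted p = 0.975). These intervals leave room for small differences in either direction. Pcdh17 differed by 0.18 ± 0.16 (interval -0.18 to 0.55, adjusted p = 0.913) and Phf21b by -0.21 ± 0.14 (interval -0.54 to 0.12, adjusted p = 0.879). Sult4a1 had the lowest p of the 6, with a difference of -0.29 ± 0.12 (interval -0.58 to -0.01, limma adjusted p = 0.842), so that its point estimate was lower in null cells. The intervals are not adjusted for the number of genes.

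**Figure D1:**
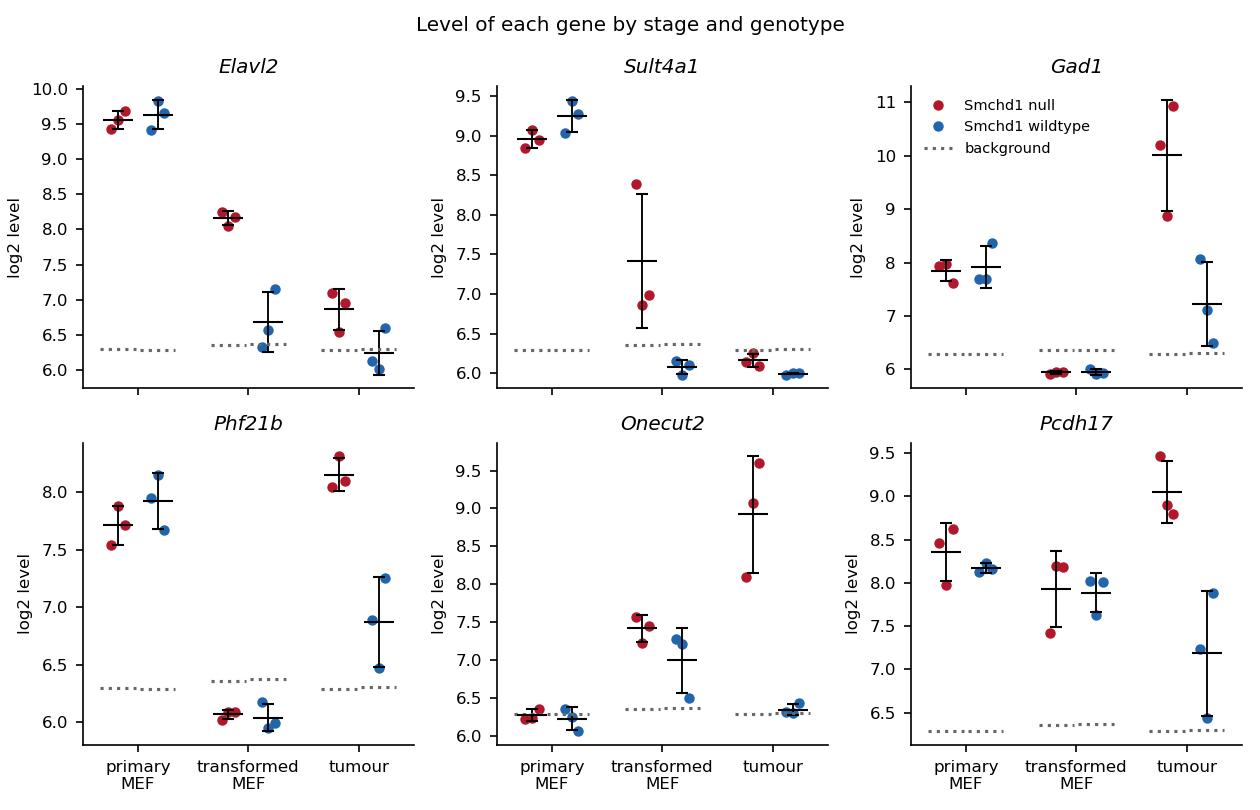
Log2 level of each gene (y axis) in primary MEFs, transformed MEFs and tumours (x axis), null in red and wildtype in blue. Points are replicates (tumours: mean of 3 arrays of a mouse), the black bar and whiskers the mean and SD (n = 3), and the dotted line background. Elavl2 and Sult4a1 start high and separate in transformed MEFs. Gad1, Phf21b, Onecut2 and Pcdh17 separate in tumours.

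Transformed MEFs separated Elavl2 and Sult4a1 by genotype. Elavl2 was at 8.25, 8.05 and 8.17 in null transformed MEFs, against 6.33, 6.57 and 7.15 in wildtype transformed MEFs. All 3 null replicates lay above all 3 wildtype replicates, and 1 wildtype replicate was not above background. The means were 8.16 ± 0.10 in null and 6.68 ± 0.42 in wildtype cells (SD, n = 3 each), a log2 difference of 1.47 or 2.78-fold. Compared with primary MEFs, Elavl2 was 2.65-fold lower in null and 7.73-fold lower in wildtype transformed MEFs. A second Elavl2 probe gave 7.42, 6.58 and 7.44 in null and 6.10, 6.26 and 6.26 in wildtype transformed MEFs. It was not above background in the wildtype cells and at least 1.71-fold higher in the null cells, so the probes ran the same way.

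Sult4a1 was at 8.39, 6.86 and 6.99 in null transformed MEFs, against 6.15, 5.98 and 6.10 in wildtype transformed MEFs, where no replicate was above background. The groups did not overlap, but null replicate 1 stood apart from the other two. Sult4a1 was at least 2.06-fold higher in null than in wildtype transformed MEFs. The measured difference of 1.34 became 0.85 without null replicate 1. In wildtype cells Sult4a1 was at least 7.38-fold lower after transformation, while in null cells it was 2.92-fold lower. The second Sult4a1 probe, listed under the older name 2400007A17RIK, was detected on no array and averaged 6.27 ± 0.21 in null and 5.99 ± 0.01 in wildtype transformed MEFs (SD, n = 3 each).

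Non-overlap with higher null values was found for 14.4% of all genes in transformed MEFs and for 2 of these 6, which the rule had chosen on this contrast. Elavl2 had the 13th and Sult4a1 the 15th highest difference of 13870 genes. The other 4 genes did not separate the genotypes at this stage. Onecut2 averaged 7.41 ± 0.17 in null and 6.99 ± 0.43 in wildtype transformed MEFs, a difference of 0.42 with overlapping replicates. Pcdh17 averaged 7.93 ± 0.44 in null and 7.89 ± 0.22 in wildtype cells. Gad1 averaged 5.95 ± 0.03 in null and 5.95 ± 0.05 in wildtype cells, and Phf21b averaged 6.07 ± 0.04 in null and 6.04 ± 0.12 in wildtype cells, with no replicate of either gene above background. Compared with primary MEFs, Gad1 was at least 2.80-fold lower in null and at least 2.93-fold lower in wildtype transformed MEFs. Phf21b was at least 2.55-fold lower in null and at least 2.93-fold lower in wildtype cells. Onecut2 ran the other way by the probe that represents it. All 3 replicates of each genotype were above background in transformed MEFs, against 1 of 3 in primary MEFs. Its probe 5270379 gave 6.91, 6.31 and 6.86 in null and 6.38, 6.80 and 6.17 in wildtype transformed MEFs, 2 of 3 above background in each. By that probe wildtype transformed and wildtype primary MEFs overlapped.

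Gene lists of neurons and of other cell types also stood lower in transformed than in primary MEFs. The 11 measured pan-neuronal genes averaged 8.48 to 8.57 in null and 8.38 to 8.60 in wildtype transformed MEFs, against 9.53 to 9.70 in null and 9.65 to 9.84 in wildtype primary MEFs. Among them, Dcx, a microtubule-binding protein of young neurons, averaged 6.08 in null and 6.12 in wildtype transformed MEFs, not above background, against 10.02 in null and 10.19 in wildtype primary MEFs. Syt1, a calcium sensor of synaptic vesicles, averaged 6.10 in null and 6.12 in wildtype transformed MEFs, likewise not above background, against 9.49 in null and 9.50 in wildtype primary MEFs. Not all genes of the list were lower, since Nefm, Gap43 and Eno2 were higher in transformed MEFs. Nefm averaged 10.58 in null and 10.60 in wildtype transformed MEFs, against 7.98 in null and 8.26 in wildtype primary MEFs. Gap43 averaged 11.79 in null and 11.76 in wildtype transformed MEFs, against 10.14 and 10.19 in primary MEFs. For Eno2 the values were 11.16 and 11.40, against 10.81 and 10.89. These single genes are named here after their values were seen. The 5 measured neuronal transcription factors averaged 6.16 to 6.34 in null and 6.12 to 6.20 in wildtype transformed MEFs, against 7.76 to 8.04 in null and 7.96 to 8.45 in wildtype primary MEFs. The lower level after transformation was thus shared by the means of these lists and 4 of the 6 genes in both genotypes. These 4 were Elavl2, Sult4a1, Gad1 and Phf21b. The 4 measured glial and Schwann cell markers averaged 6.55 to 6.74 in null and 6.61 to 7.02 in wildtype transformed MEFs, against 9.83 to 10.06 in null and 9.90 to 10.17 in wildtype primary MEFs. Sox10, named here after its values were seen, was not above background in any transformed or tumour sample. The 9 macrophage markers averaged 6.15 to 6.23 in null and 6.09 to 6.14 in wildtype transformed MEFs, against 10.33 to 10.52 in null and 10.33 to 10.64 in wildtype primary MEFs. The skeletal muscle, endothelial and epithelial lists were lower in transformed MEFs too, with means of 6.30 to 6.99 in null and 6.42 to 6.83 in wildtype cells, against 7.94 to 10.13 in null and 8.09 to 9.30 in wildtype primary MEFs. The macrophage mean was above 10 in primary MEFs and tumours and near background between them, and Gad1 and Phf21b were also lowest in transformed MEFs. The rest of the order differed. Wildtype tumours stood above wildtype primary MEFs for the macrophage mean (11.27 to 11.64 against 10.33 to 10.64). They averaged lower for Gad1 (7.22 against 7.92, with overlap) and Phf21b (6.87 against 7.92, without overlap). In bulk RNA, fewer cells of a type and less RNA per cell cannot be told apart, and the part of these cell types in the stage differences was not tested. Between genotypes the 4 glial markers differed by -0.40 to 0.03 in transformed MEFs, with 0 called. Of the 10 fibroblast markers 3 were called lower in null cells, at a stage where 3.57% of all genes were called lower. These were Lum (-1.49 ± 0.20, limma adjusted p = 0.00729), Pdgfra (-0.43 ± 0.08, adjusted p = 0.0257) and Pdgfrb (-0.40 ± 0.10, adjusted p = 0.0484). The Pdgfrb call was lost on leaving out any 1 replicate (adjusted p up to 0.129) and the Pdgfra call on leaving out any but null replicate 1 (adjusted p up to 0.0814). All 10 fibroblast differences were negative, with a median of -0.41, against 0.001 over all genes.

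In tumours the pattern turned to Gad1, Onecut2, Pcdh17 and Phf21b. Gad1 was at 10.20, 8.88 and 10.94 in null recipients 4, 5 and 6, against 8.06, 7.12 and 6.49 in wildtype recipients 1, 2 and 3. The mouse means did not overlap. They averaged 10.01 ± 1.04 in null and 7.22 ± 0.79 in wildtype tumours (SD, n = 3 each), a difference of 2.79 or 6.90-fold. Compared with transformed MEFs, Gad1 was at least 12.5-fold higher in null tumours and at least 1.81-fold higher in wildtype tumours. Single arrays did overlap, since 7 of 9 null arrays lay above every wildtype array and the highest wildtype array, from recipient 1, reached 9.22, against a lowest null array of 8.27. Gad1 probes 830437 and 4920243 gave differences of 2.75 and 2.41 in tumours. Probe 4920243 stayed below background in all 6 primary MEF samples, where the other two detected probes were above it, so the probes disagree there. The remaining probe, 5870086, was detected on no array.

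Onecut2 was at 8.09, 9.07 and 9.60 in null tumours, against 6.31, 6.30 and 6.43 in wildtype tumours. All 9 null arrays, with a lowest value of 7.76, lay above all 9 wildtype arrays, with a highest value of 6.55. The means were 8.92 ± 0.77 in null and 6.35 ± 0.07 in wildtype tumours (SD, n = 3 each), a difference of 2.57. The wildtype tumours barely exceeded background, which lay at 6.29, 6.30 and 6.32 in these mice, so the measured 5.96-fold ratio is limited by background. Onecut2 was 2.84-fold higher in null tumours than in null transformed MEFs, and in wildtype tumours it was lower than in wildtype transformed MEFs. Probe 5270379, listed under the older name C730009D12, gave 7.73, 8.30 and 9.40 in null and 6.30, 6.20 and 6.32 in wildtype tumours. By this probe wildtype recipient 2 was not above background, and wildtype tumours overlapped with wildtype transformed MEFs. Probe 6660008 was detected on no array.

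Pcdh17 was at 9.46, 8.90 and 8.79 in null tumours, against 7.24, 6.44 and 7.88 in wildtype tumours, a difference of 1.87 or 3.64-fold. It was above background in every sample of the study, and only in tumours did the mouse means or replicates leave no overlap. Single tumour arrays did overlap for Pcdh17, with 8 of 9 null arrays above every wildtype array. The lowest null array was at 8.33 and the highest wildtype array at 8.47. Null tumours stood 2.18-fold above null transformed MEFs. Phf21b was at 8.04, 8.31 and 8.10 in null tumours, against 6.89, 6.47 and 7.25 in wildtype tumours, a difference of 1.28 or 2.43-fold. The null mice lay close together for Phf21b and above each wildtype mouse, although the lowest null array and the highest wildtype array met at 7.34. Phf21b was at least 3.46-fold higher in null tumours and at least 1.42-fold higher in wildtype tumours than in the transformed MEFs of that genotype.

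Elavl2 and Sult4a1 were low in tumours. By the probe that represents it, Elavl2 was at 7.10, 6.54 and 6.95 in null tumours, against 6.13, 6.01 and 6.60 in wildtype tumours, a difference of 0.61 with overlap. Probe 5270768 of Elavl2 was at 6.51, 6.28 and 6.52 in null tumours, against 5.98, 6.02 and 6.13 in wildtype tumours. By that probe all null and no wildtype tumours were above background, although null recipient 5, at 6.28, was level with its background of 6.28 after rounding. Elavl2 was at least 1.10-fold higher in null tumours by that probe, so the probes disagree on overlap. Sult4a1 was not above background in any tumour of either genotype, with means of 6.16 ± 0.08 in null and 5.99 ± 0.01 in wildtype tumours (SD, n = 3 each). Its mouse means did not overlap, but values under background have no fold. Non-overlap with higher null values occurred for 3.56% of all genes in tumours, against 5 of these 6 genes, and this contrast also chose the genes. Gad1 had the 3rd and Onecut2 the 4th highest difference of 13870 genes, followed by Pcdh17 at the 23rd and Phf21b at the 80th place.

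**Figure D2:**
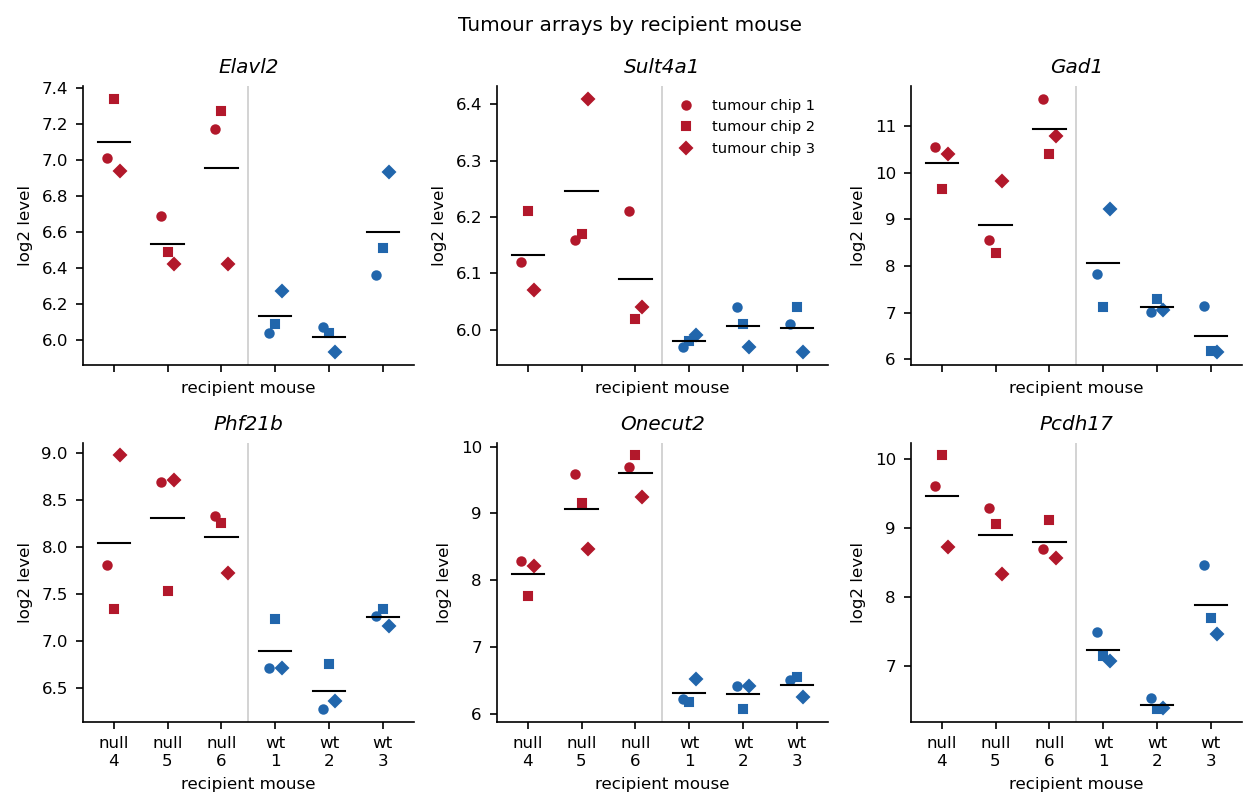
Log2 level (y axis) on each tumour array, by recipient mouse (x axis; null recipients 4 to 6 in red, wildtype recipients 1 to 3 in blue), with 1 marker shape per chip and a line at each mouse's mean. The 9 null arrays of Onecut2 lie above all wildtype arrays, while those of Gad1 overlap through 1 array of wildtype recipient 1 at 9.22.

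Each of the 3 tumour chips held 1 array per mouse, so the difference can be read within a chip. Gad1 gave 2.90, 2.58 and 2.87 on the 3 chips, and Onecut2 gave 2.82, 2.67 and 2.24. For Pcdh17 the values were 1.70, 2.34 and 1.57. The sign was the same on the 3 chips for these genes. Phf21b varied more, with 1.52, 0.60 and 1.72. Elavl2 gave 0.80, 0.82 and 0.22, and Sult4a1 0.16, 0.13 and 0.20, the last of them below background.

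Skeletal muscle markers averaged 7.71, 6.75 and 8.44 in null recipients 4, 5 and 6, against 7.14, 6.77 and 6.67 in wildtype recipients 1, 2 and 3 (7 of 10 genes measured). Gad1 had the same order among the null mice, highest in recipient 6 and lowest in recipient 5. That order was not particular to muscle. Means of the pan-neuronal, neuronal RNA-binding protein, neuronal transcription factor, non-clustered protocadherin and glial lists followed it too. Those of the REST and BHC complex, macrophage, fibroblast, endothelial and epithelial lists did not. None of the 7 muscle genes was called, 6 had positive differences and the median was 0.61. The differences ran from -0.15 for Actn3 to 1.86 for Des, with Mylpf at 1.21 and Tnni2 at 1.08, genes named here after their values were seen. Of the 7 genes, 7, 3 and 6 were above background in null recipients 4, 5 and 6, against 7, 5 and 4 in wildtype recipients 1, 2 and 3, and the part of muscle in the Gad1 values was not tested. Macrophage markers had 9 of 9 negative differences with a median of -0.26, and endothelial markers 5 of 6 with a median of -0.29, with 0 called in either list. Among all 13870 genes the median tumour difference was -0.006.

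Close relatives of the 6 genes were measured too. In primary MEFs Gad2, the other glutamate decarboxylase, averaged 7.30 ± 0.04 in null and 7.42 ± 0.03 in wildtype cells. It was not above background in any transformed or tumour sample, including the tumours with the highest Gad1. Elavl3, a Hu family member of neurons, averaged 9.68 ± 0.06 in null and 9.87 ± 0.25 in wildtype primary cells. It was likewise not above background in any later sample, including the null transformed MEFs, where Elavl2 was above background. Elavl1, the family member of most cell types, lay between 11.30 and 11.78 in all groups. Phf21a lay between 6.80 and 7.07 in all groups. None of these 4 was called at any stage. Elavl4, Onecut3 and Rest had no probe that passed the filter, and Onecut1 had no probe under that name, so they were not analysed here.

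Other neuronal genes were described by list. Of 15 pan-neuronal genes 11 were measured, and 0 were called at any stage, with medians of -0.15 before transformation, 0 after it and 0.04 in tumours. Of 11 neuronal transcription factors 5 were measured, and Isl1, a LIM homeobox factor of motor and sensory neurons, was called higher in null transformed MEFs, a stage in which 2.95% of all genes were called higher and 3.57% lower (7.26 ± 0.29 in null and 6.57 ± 0.14 in wildtype cells, difference 0.69 ± 0.15, SE, limma adjusted p = 0.0377). Of 9 non-clustered protocadherins 7 were measured, and Pcdh9 was called lower in null transformed MEFs (8.60 ± 0.11 in null and 9.08 ± 0.15 in wildtype cells, difference -0.49 ± 0.10, adjusted p = 0.0326). The Isl1 call was lost on leaving out null replicate 2 or 3 or any wildtype replicate (adjusted p up to 0.105), and the Pcdh9 call on leaving out any null replicate or wildtype replicate 1 or 3 (adjusted p up to 0.101).

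In tumours the means of the 5 transcription factors were 6.67, 6.32 and 8.10 in null recipients 4, 5 and 6. They were 6.05 to 6.27 in wildtype mice, and the median difference was 0.01. The wide null range was set by recipient 6 and came with a wide spread of Isl1 and Insm1 among the null mice. Isl1 averaged 9.55 ± 2.55 in null and 6.72 ± 0.47 in wildtype tumours (SD, n = 3 each). Its difference of 2.83 was larger than that of any of the 6 genes and was not called (limma adjusted p = 1). Insm1, a zinc finger factor of neuroendocrine cells named here after its values were seen, averaged 7.55 ± 2.33 in null and 6.06 ± 0.04 in wildtype tumours, a difference of 1.49 that was not called either. The means of the REST and BHC complex were 9.90 to 10.07 in null and 9.68 to 9.84 in wildtype tumours, and those of the neuronal RNA-binding proteins 8.19 to 8.37 in null and 8.01 to 8.13 in wildtype transformed MEFs. These list means did not overlap, with null samples higher, although 0 of their genes were called. Some lists outside the neural ones did not overlap in transformed MEFs either. Macrophage means were higher in null cells, at 6.15 to 6.23 against 6.09 to 6.14, near background. Fibroblast means were lower in null cells, at 11.58 to 11.75 against 11.99 to 12.07. Endothelial means were lower too, at 6.30 to 6.39 in null and 6.65 to 6.76 in wildtype cells. In primary MEFs the RNA-binding proteins ran the other way, at 9.77 to 9.83 in null and 9.84 to 9.97 in wildtype cells. The non-clustered protocadherins were also lower in null primary cells without overlap, at 8.03 to 8.07 in null and 8.09 to 8.16 in wildtype cells, with 0 genes of either list called at that stage. This was not limited to neural lists. Fibroblast means did the same in primary MEFs, at 12.25 to 12.27 in null and 12.32 to 12.40 in wildtype cells, with 0 called.

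No gene was called among the neuronal RNA-binding proteins (4 of 7 measured), the REST and BHC complex (7 of 9), the cytosolic sulfotransferases (1 of 8) and the glial and Schwann cell markers (4 of 9). The median difference of the RNA-binding proteins was -0.09 in primary cells, 0.30 in transformed cells and 0.25 in tumours. That of the REST and BHC complex was 0.07 in primary cells, 0.18 in transformed cells and 0.13 in tumours. Over all genes the medians were -0.009, 0.001 and -0.006 at these stages. No list gene was called in tumours, where limma called 0 genes in all and 314 (2.26%) had an unadjusted p under 0.05. Outside the neural lists, Tek of the endothelial list was called lower in null transformed MEFs (-0.93 ± 0.14, adjusted p = 0.0118). The 6 epithelial markers all had positive differences in primary MEFs, with a median of 0.75 and 0 called.

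**Figure D3:**
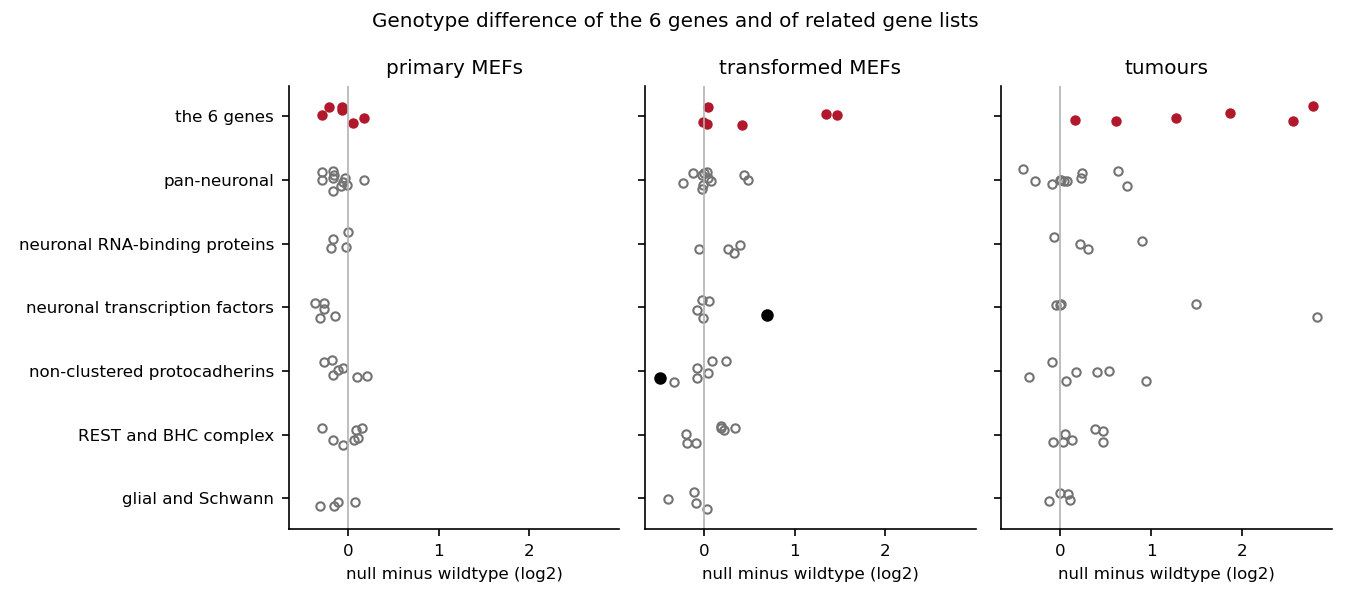
Null minus wildtype log2 difference (x axis) of the 6 genes (red) and of the genes of 6 neural lists (grey; rows) at each stage. Filled black points are list genes called by limma at an adjusted p under 0.05 (Isl1 and Pcdh9, both in transformed MEFs). The red points lie near 0 in primary MEFs and reach 2.79 in tumours, where Isl1 of the transcription factor list lies at 2.83.

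The groups were ordered by level at the probe that represents each gene. Elavl2 was highest in null and wildtype primary MEFs, which overlapped, then in null transformed MEFs and null tumours, each step without overlap. Null tumours, wildtype transformed MEFs and wildtype tumours overlapped with the next in that order. Sult4a1 had the same order and the same clear steps, with its lowest 3 groups all under background. Gad1 was highest in null tumours, with no overlap with the next group. Wildtype primary MEFs, null primary MEFs and wildtype tumours overlapped with each other in order, and both transformed groups lay below them. Phf21b had the same order, but null tumours overlapped with wildtype primary MEFs, and wildtype tumours lay apart from the groups above and below. Onecut2 was highest in null tumours, then in null and wildtype transformed MEFs, which overlapped, and lowest in wildtype tumours and both primary groups, which overlapped in turn. Pcdh17 set null tumours apart at the top, and every further neighbour in its order overlapped, down to wildtype tumours at the bottom.

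Across the 18 values of the 6 groups, Elavl2 and Sult4a1 had a Pearson correlation of 0.96, and Gad1 and Phf21b one of 0.82. The highest value of Pcdh17 was 0.58, with Phf21b, and that of Onecut2 was 0.49, with Pcdh17. Elavl2 and Onecut2 had -0.43. These points fall in 6 groups and share arrays, so the values describe shape only. The genes most like Elavl2 were Vstm2b (0.976), Cxadr (0.970) and Armh4 (0.967), and those most like Sult4a1 were Armh4 (0.964), Elavl2 (0.963) and LOC100044622 (0.960). Armh4 averaged 7.27 ± 0.13 in null and 6.20 ± 0.18 in wildtype transformed MEFs. Vstm2b averaged 7.55 ± 0.20 in null and 6.46 ± 0.29 in wildtype transformed MEFs. These groups did not overlap for Armh4 or Vstm2b, as for 14.4% of all genes with higher null values at this stage. Both were picked for likeness to Elavl2 over the same values. Cxadr averaged 8.20 ± 0.22 in null and 7.59 ± 0.52 in wildtype transformed MEFs, with overlap.

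For Gad1 the likest were Nod1 (0.931), Sp5 (0.925) and Slc7a4 (0.911), and for Phf21b Cacna1h (0.962), Kdm4b (0.951) and Dlgap1 (0.936). Cacna1h, a T-type calcium channel subunit, averaged 9.24 ± 0.50 in null and 7.92 ± 0.88 in wildtype tumours, and 6.26 ± 0.13 in null and 6.32 ± 0.09 in wildtype transformed MEFs. For Onecut2 they were 1700030C10Rik (0.872), Speer4c (0.869) and Sh2d6 (0.857), and for Pcdh17 Fam53a (0.812), Tmem120b (0.799) and Arap2 (0.793). Of the Onecut2 group, 1700030C10Rik was above background in all null and no wildtype tumours, at 7.45 ± 0.35 in null and 6.09 ± 0.06 in wildtype mice (SD, n = 3 each). The likeness of Pcdh17 to any gene was the weakest of the 6.

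Sp5, a transcription factor of the Sp family, is also a chromosomal neighbour of Gad1, the second measured protein-coding gene to one side in RefSeq order. It was at 9.02, 8.68 and 9.80 in null tumours, against 7.82, 8.03 and 6.28 in wildtype tumours. The groups did not overlap, and the difference of 1.79 was not called (limma adjusted p = 1). Erich2, the measured gene between them, differed by 0.07 in tumours, and Gorasp2 on the other side of Gad1 by 0.06. The neighbourhoods were looked at after the values had been seen. Of 34 neighbouring genes, 3 measured ones on each side of each of the 6, 0 were called in primary MEFs or tumours. In transformed MEFs 0 were called higher and 1 lower, Atp8b1 near Onecut2. Phf21b and Sult4a1 lie on chromosome 15 with 9 protein-coding genes between them, of which 4 were measured and 0 called at any stage. Rtl6, one of these 4, averaged 7.57 ± 0.78 in null and 6.38 ± 0.26 in wildtype tumours (difference 1.19, adjusted p = 1).

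**Figure D4:**
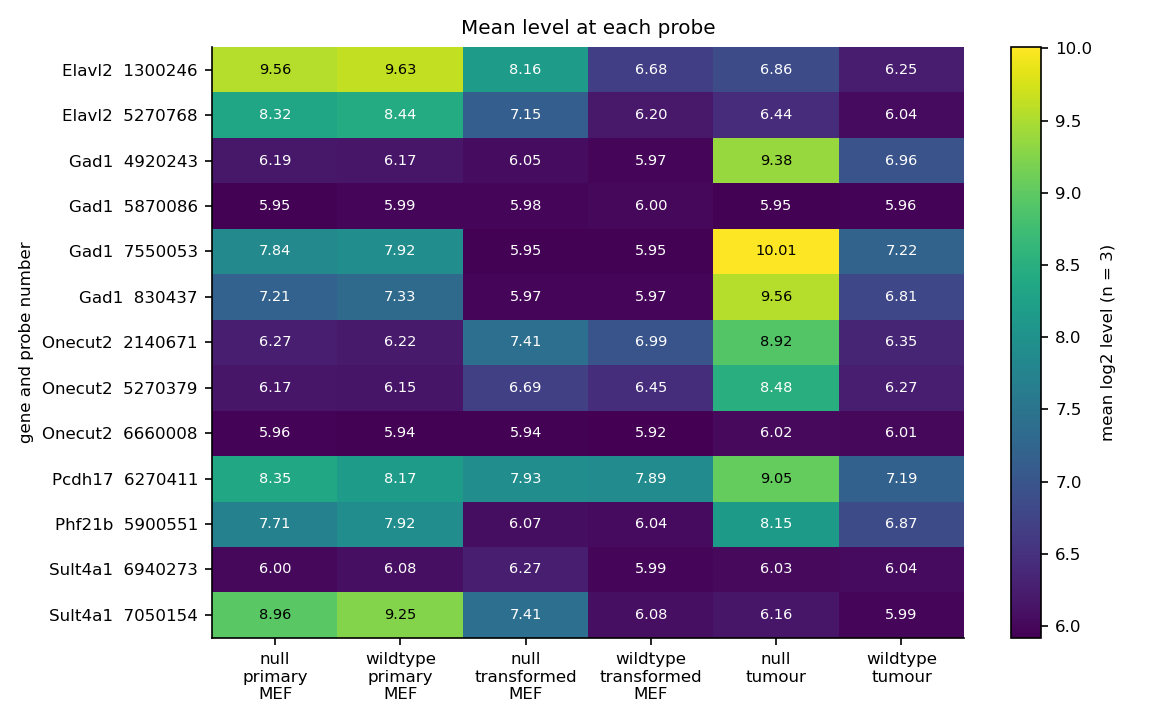
Mean log2 level (colour and number) at each of the 13 probes (rows) in the 6 groups (columns; n = 3 each). The detected probes of 1 gene mostly run alike, but 1 Gad1 probe in primary MEFs was at 6.19 in null and 6.17 in wildtype cells. The 3 probes detected on no array stay near background throughout.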

How the data were processed

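Expression was measured on 30 Illumina arrays. The deposited values are log2 intensities, normalized between arrays by the authors with BeadStudio, R 2.15.1 and limma 3.12.1, per the submitters' processing notes; their background correction is not given in any source used here. Their median was 6.07 in primary cells, 6.06 in transformed cells and 6.25 in tumours. The authors also deposited scanner intensities without normalization (BeadStudio 3.4.0, per the file headers) and a detection p-value per probe and array. The 480 columns of these tables match no sample label. From the deposited detection p-values only the number of arrays with p under 0.01 was used, after all 45281 rows had been matched. Gene symbols were updated through RefSeq GRCm38.p6: 27400 probes had a current symbol, 8341 an older one, 191 several and 9349 none.

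All arrays were quantile normalized together, and the 3 arrays of a recipient were averaged. Probes detected on at least 3 arrays were kept (20254), and the kept probe of highest mean stood for its gene (13870 genes). Each stage was fitted alone with limma 3.58.1 in R 4.3.3 (lmFit and eBayes, 4 residual degrees of freedom per stage) with Benjamini-Hochberg adjustment over all genes. The fit was tested on simulated data. A group not above background gave only a bound, computed against background. The number of arrays limits the precision. The members and lists were chosen with earlier results of these data known. Named are all members, their relatives, up to 3 called genes per list and comparison, Smchd1 and the 3 genes most correlated with each member. Neighbours, motifs, Sox10, Dcx, Syt1, Nefm, Gap43, Eno2, Insm1 and the muscle genes were added after their values were seen. A result of 1 further gene list is not reported here. Alternatives were other fits, filters, normalizations, probes, blocks, chips and left-out replicates.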

Additional observations from a re-analysis of the deposited data

How the results depend on the processing

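None of the 6 genes was called in primary MEFs under any of 12 alternatives, where the lowest limma adjusted p was 0.485, for Pcdh17. The difference of Elavl2 in transformed MEFs ranged from 1.30 to 1.71 and that of Sult4a1 from 0.85, without null replicate 1, to 1.62. In tumours Gad1 ranged from 2.32 to 3.35, Onecut2 from 2.23 to 2.99 and Pcdh17 from 1.49 to 2.34. Phf21b in tumours was 0.60 on chip 2 and 1.72 on chip 3, and Elavl2 was 0.22 on chip 3, and the cause was not tested. Differences near 0 in transformed MEFs changed sign, from -0.03 to 0.02 for Gad1, from -0.09 to 0.29 for Pcdh17 and from -0.01 to 0.10 for Phf21b. Tek stayed called under all 12 alternatives. Isl1 lost its call under 7 of them (highest adjusted p = 0.964), Pcdh9 under 8 (0.667), Pdgfra under 6 (0.775), Pdgfrb under 10 (0.757) and Lum under 1 (0.45, the fit shared over stages).

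The number of genes called, 7 before transformation, 904 after it and 0 in tumours, became 16, 146 and 19 with 1 spread shared over the 6 groups. Without a filter on low values, which tests more genes, it became 2 and 602 in the culture stages. Leaving out 1 replicate gave 2 to 4 calls in primary MEFs and 245 to 560 in transformed MEFs, with fewer samples, and 0 in tumours. All tumour arrays with chip and recipient as blocks gave 7. Deviations of same-numbered culture replicates correlated at -0.37 to -0.01 in primary MEFs and at 0.05 to 0.07 in transformed MEFs. Those of different-numbered replicates correlated at -0.27 to 0.35 in primary MEFs and at -0.05 to -0.01 in transformed MEFs. Such values cannot decide whether the numbers pair the samples, and the main fit did not pair them. With the replicate number as a block, 2 genes were called in primary MEFs and 689 in transformed MEFs. Normalization from the scanner intensities was not run because their columns match no sample.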
